A study of Mus musculus with 19 samples.

Results

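Day 115 was set against day 40 after transfer of OT-I CD8+ T cells into irradiated hosts, to see which memory-like transcripts were still at their day 40 level and which had moved. The members were chosen by sample title: the 3 arrays titled for day 115 and the 4 titled for day 40, which makes 7 of the 19 arrays of the study. OT-I cells carry 1 transgenic receptor for an ovalbumin peptide, so every transferred cell has the same specificity. Per the labels, cells of both groups went into irradiated b6 hosts, were sorted at day 40 or day 115, and gave total RNA from lymph node and spleen. The other arrays were 8 titled day 5, described as sorted at day 6 after transfer into irradiated hosts, and 4 from unirradiated b6 hosts, sorted at day 6. Neither late day has unirradiated hosts of its own. The labels name no antigen, sex or age, and do not say which samples came from separate animals, so p-values measure the spread between samples only.

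Irradiation empties the lymphoid compartment, and naive CD8 T cells placed there divide in response to self peptide-MHC and to the cytokines IL-7 and IL-15. Without meeting their foreign antigen they take on the surface phenotype and the rapid effector functions of memory cells, and are called memory-like or homeostatic memory cells. True memory CD8 T cells persist through the same cytokines, with slow renewal and high expression of survival genes, which makes the stability of the programme the question between the 2 late days.

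Signals were 1 linear intensity per probe set and array. A difference below is day 115 minus day 40 on the log2(signal + 16) scale, from a limma fit to all 19 arrays with the group and the array cluster as terms. A gene is called when its Benjamini-Hochberg adjusted p, over the 8695 probe sets tested, is under 0.05. A gene is said to have held within 2-fold when the 95% interval of its difference lies wholly between -1 and 1. The interval is needed because a p above the threshold does not show a lack of change.

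The 7 arrays did not form 2 groups by day. Day 40 arrays 1 and 2 lay in array cluster 1 with all 3 day 115 arrays, and day 40 arrays 3 and 4 lay in array cluster 2 with all 4 unirradiated arrays. Across all 12422 probe sets other than controls, the Pearson correlation of a day 40 with a day 115 array was 0.963 to 0.986 (median 0.977, 6 pairs) within cluster 1. Arrays of the same day within a cluster correlated at 0.959 to 0.993 (median 0.978, 5 pairs), and the day 40 arrays of different clusters at 0.926 to 0.959 (4 pairs). Within cluster 1 alone, arrays of the same day correlated at 0.959 to 0.981, so a day 40 array was there as like a day 115 array. The clusters were drawn from these same correlations, so this likeness is a description and not a test. Day 115 array 2 correlated with the other 2 day 115 arrays at 0.967 and 0.959, and those 2 with each other at 0.981. It was the lowest of the 7 arrays for 24% of the tested probe sets, where each of the others was lowest for 6.6% to 19.9%. Among the memory genes described below it was the lowest array for 10 and the highest for 11. Values per array are given below, because the cluster and this array both touch single genes. No source used here says what sets the clusters apart.

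Markers of CD8 T cells were present on every array of both days. Cd8a, the co-receptor chain, read 2020, 2310, 2740 and 3200 on day 40 arrays 1 to 4 and 2270, 2080 and 1890 on day 115 arrays 1 to 3, a difference of 0.06 (95% interval -0.24 to 0.36). Cd3e, a signalling chain of the T cell receptor complex, differed by 0.05 (-0.24 to 0.35). All 10 tested genes of the CD8 T cell identity list held within 2-fold, and 8 did within array cluster 1. The lowest estimate was that of Cd8b1, at -0.45 (-0.87 to -0.03) and -0.51 within cluster 1, where it did not hold. Their summed signal ran from 10100 to 16600 at day 40 and from 12500 to 14300 at day 115. On the day 40 arrays of cluster 1 the sum was 15400 to 16600, above all day 115 arrays. In bulk RNA, fewer cells of a type and less RNA per cell cannot be told apart.

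Most of the transcriptome held between the late days. Of 8695 probe sets, 8404 (96.7%) had an interval inside 2-fold, and by brightest probe set 6197 of 6409 genes did (96.7%). The median difference over genes was -0.02 and the median absolute difference 0.13. Only 11 probe sets were called higher at day 115 (0.127%) and 6 lower (0.069%). With groups alone and no cluster term, 8 were higher (0.092%), none was lower, and 82.4% held. Within array cluster 1, where 3 day 115 arrays meet 2 day 40 arrays, limma called none, with 294 probe sets (3.38%) at an unadjusted p under 0.05, and 94.3% held. All day 115 arrays lay above all day 40 arrays in 353 probe sets (4.06%) and below them in 377 (4.34%). The fit with the cluster term had 1075 probe sets (12.4%) at an unadjusted p under 0.05.

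Of the 33 tested genes on the list of memory CD8 T cell markers, none was called in either direction; with 0.127% and 0.069% of all probe sets called, a list of this size would hold a call only rarely, so this count says nothing particular about memory genes. The list's median difference was 0.01, and 24 of the 33 genes (72.7%) held within 2-fold, with 26 holding within cluster 1. For comparison, 96.7% of all genes held. These intervals use a spread pooled over all 4 groups. With the day 40 and day 115 arrays alone, 29 of the 33 memory genes held (87.9%), beside 95.3% of all probe sets. The share fell with brightness, to 94.2% of probe sets with a mean signal above 100 and 88.5% of those above 1000, and 15 of the 23 memory genes with a mean above 100 held. The 9 genes whose interval reached past 2-fold were S100a6, Anxa2, Lgals1, Tnfrsf1b, Gzmm and Ccl5, with estimates above 0, and Stat4, Il7r and Hopx, with estimates below 0. All day 115 arrays lay above all day 40 arrays for 3 genes (9.09%; 4.29% of all genes) and below them for 2 (6.06%; 4.07% of all genes).

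**Figure D1:**
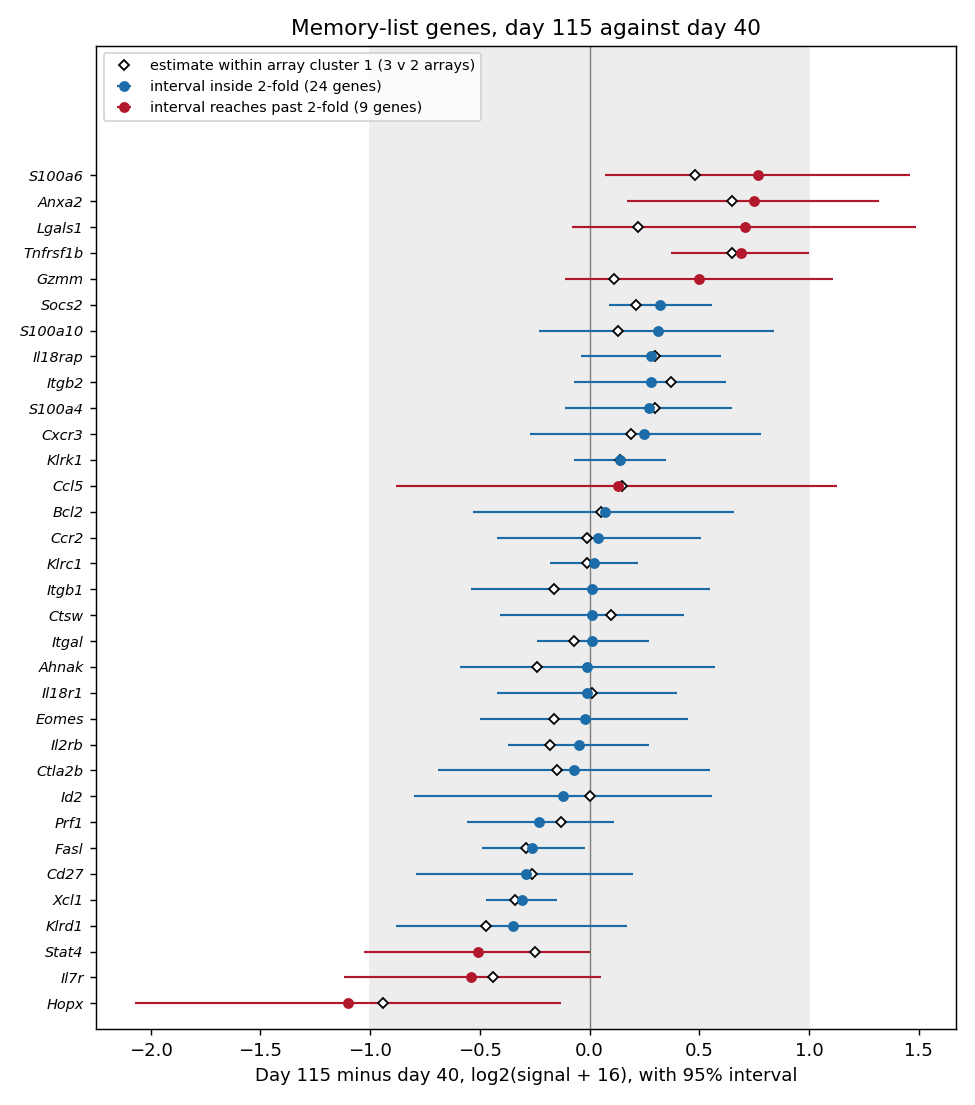
Day 115 minus day 40 differences on the log2(signal + 16) scale for the 33 tested memory-list genes, with 95% intervals from limma. Filled points are the fit to all 19 arrays (blue, the 24 genes inside 2-fold; red, the 9 reaching past it), diamonds the estimate within array cluster 1, and the grey band marks 2-fold either way; 24 intervals stay inside the band and Hopx lies lowest at -1.10.

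Levels above the unirradiated hosts were seen at both late days in part of the list. For 13 memory genes, every day 40 array and every day 115 array lay above all 4 unirradiated arrays: Ccl5, Ccr2, Ctla2b, Ctsw, Cxcr3, Fasl, Gzmm, Il18r1, Il18rap, Prf1, S100a6, Stat4 and Tnfrsf1b. The same was true of 495 of 6409 genes (7.72%). The list was written as one of memory genes, so their being high in both groups is a description. The unirradiated arrays are all of cluster 2 and the day 115 arrays all of cluster 1, and only day 40 arrays 3 and 4 share a cluster with the unirradiated arrays.

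Homing receptors held between the days. Cxcr3, which guides effector and memory T cells to sites rich in interferon-induced chemokines, read 1170, 1130, 843 and 966 at day 40 and 1160, 1510 and 1310 at day 115, against a mean of 160 in unirradiated hosts. The groups overlapped, and the difference was 0.25 (-0.27 to 0.78). Ccr2, the receptor for monocyte-attracting chemokines that memory T cells also carry, stood at 79.5, 135, 81 and 136 and then at 124, 78.3 and 114, with 31.4 in unirradiated hosts. Its difference was 0.04 (-0.42 to 0.51), and the order of its 7 arrays did not follow the day. Itgal, the alpha chain of the adhesion integrin LFA-1, differed by 0.01 (-0.24 to 0.27), its partner chain Itgb2 by 0.28 (-0.07 to 0.62) and Itgb1, the beta chain of the VLA integrins, by 0.01 (-0.54 to 0.55). All 23 tested genes of the chemokine receptor and adhesion list held. Ccr7, which brings naive and central memory cells into lymph nodes, differed by 0.02 (-0.49 to 0.53), and Itgae, an integrin chain of tissue-resident cells, by -0.20 (-0.48 to 0.08) at signals of 19.3 to 27.7.

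Receptors for the cytokines that keep memory cells alive were less uniform. Il2rb, the chain shared by the IL-2 and IL-15 receptors, read 98.1, 59.3, 50.3 and 43.2 at day 40 and 73.9, 59 and 64.6 at day 115. The day 115 arrays all lay within the day 40 range, and the difference was -0.05 (-0.37 to 0.27). Il7r, the IL-7 receptor chain of naive and long-lived memory cells, read 1340, 2160, 2440 and 3020 and then 1770, 759 and 1450. Its estimate was -0.54 (-1.12 to 0.05; adjusted p = 0.45, limma), so a fall of more than 2-fold lay inside the interval. Day 115 array 2 had the lowest value, and without that array the estimate for Il7r was -0.18 and its interval fell inside 2-fold. The 2 IL-18 receptor chains, which let memory cells make interferon-gamma without antigen, held: Il18r1 by -0.01 (-0.42 to 0.40) and Il18rap by 0.28 (-0.04 to 0.60). Il18r1 read 296, 418, 487 and 484 at day 40 and 403, 309 and 360 at day 115, above the 88.9 to 166 of unirradiated hosts. Of the wider list of cytokine receptors and signalling, 22 of 26 genes held and none was called. Within it, Cish, a STAT5-induced inhibitor, differed by -0.08 (-0.33 to 0.17) and Stat5b, a signal carrier of IL-7 and IL-15, by -0.08 (-0.26 to 0.11).

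Bcl2, the survival factor that IL-7 and IL-15 sustain, split by array cluster and not by day. It read 298, 342, 806 and 733 at day 40 and 438, 277 and 300 at day 115. The 2 highest values were those of day 40 arrays 3 and 4, the arrays of cluster 2, and the 5 arrays of cluster 1 overlapped. The estimate was 0.07 (-0.53 to 0.66) with the cluster term, -0.56 on groups alone and 0.05 within cluster 1. The other 2 Bcl2 probe sets differed by -0.11 and -0.10. All 15 tested genes of the Bcl2 family and death list held, with a median difference of -0.03.

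Effector genes were mostly level as well. Fasl, the ligand that triggers death through Fas, read 141, 102, 97.7 and 108 at day 40 and 91.8, 95.4 and 99.2 at day 115, against 25.4 to 31.5 in unirradiated hosts. Its interval of -0.49 to -0.02 lay inside 2-fold (estimate -0.26; adjusted p = 0.364, limma). Prf1, the pore-forming perforin, differed by -0.23 (-0.56 to 0.11) and Ctsw, a protease of cytotoxic cells, by 0.01 (-0.41 to 0.43). Ccl5, a chemokine that memory CD8 T cells store as message, read 1730, 2050, 2000 and 2860 and then 1860, 2160 and 2310, beside 172 to 551 in unirradiated hosts. Its 7 values overlapped, yet its interval of -0.88 to 1.13 was too wide to bound the change at 2-fold. The pooled spread includes the day 5 arrays, where Ccl5 ranged from 141 to 654. Gzmm, a granzyme, read 155, 345, 67.1 and 61.7 and then 159, 352 and 287, with an estimate of 0.50 (-0.11 to 1.11) and of 0.11 within cluster 1, where it held. Gzmb, the granzyme of fresh effector cells, read 136, 70.2, 76.4 and 79.5 and then 88.2, 83.8 and 101, beside a mean of 76.2 in unirradiated hosts. Its estimate was -0.05, but its interval lay inside 2-fold under only 2 of 18 alternatives. Gzma differed by 0.02 (-0.36 to 0.40). Xcl1, a chemokine for cross-presenting dendritic cells, read 43.7, 47.1, 37 and 35.8 and then 32.8, 31.1 and 33.6, so that no arrays overlapped, with a difference of -0.31 (-0.47 to -0.15; adjusted p = 0.138, limma). Of 18 tested effector molecules, 15 held and none was called.

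**Figure D2:**
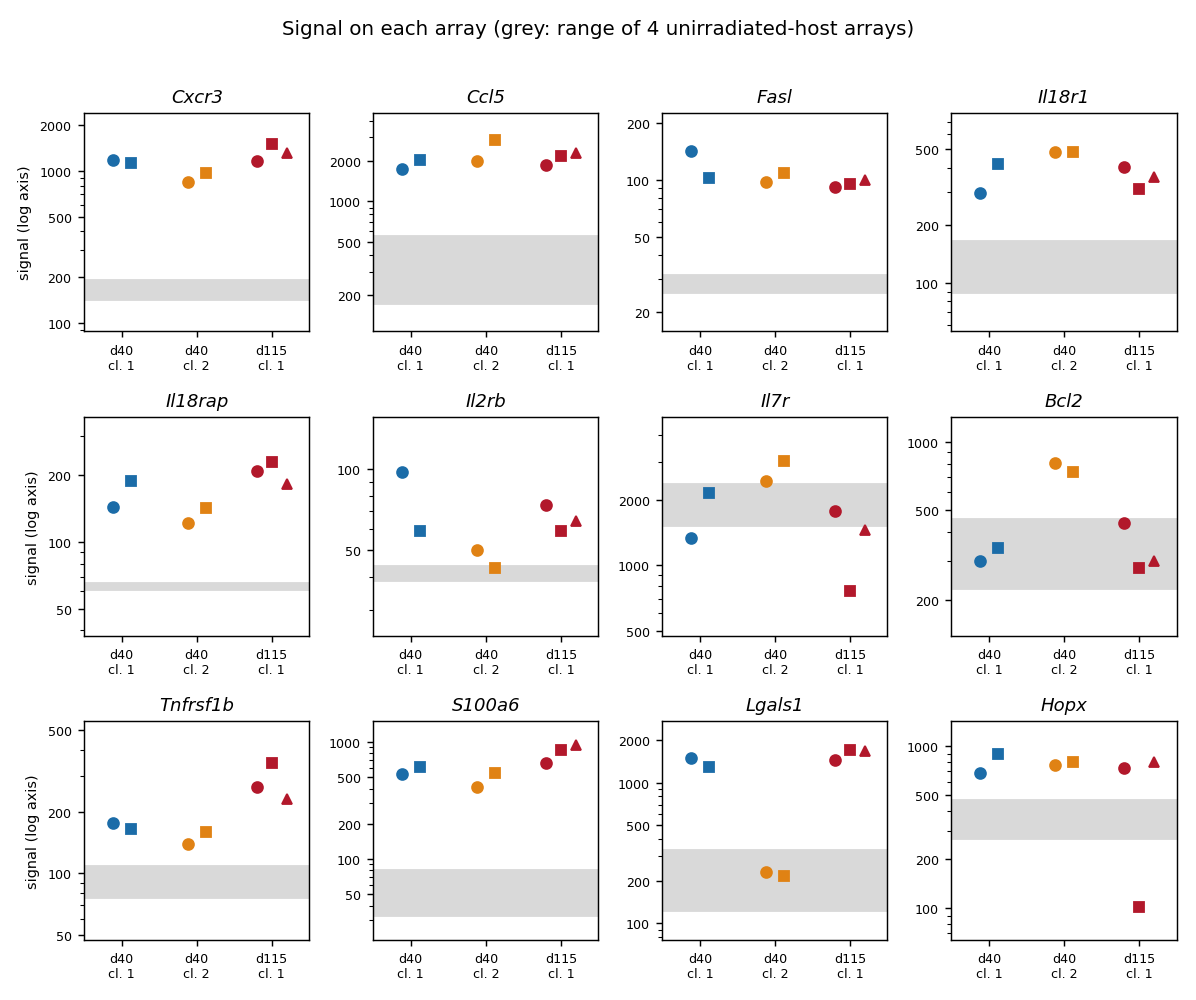
Signal (log axis) of 12 memory-list genes on each array: day 40 arrays of cluster 1 in blue, day 40 arrays of cluster 2 in orange and day 115 arrays in red, with a marker shape for each array of a set. The grey band is the range of the 4 unirradiated arrays; Cxcr3 stands clear of it on all 7 arrays, Lgals1 and Bcl2 split by array cluster, and Hopx is low on day 115 array 2 only.

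NK-type receptors, which memory CD8 T cells share with NK cells, held in 8 of 8 tested genes. Klrk1, which encodes the activating receptor NKG2D, read 67.4, 66.1, 55.9 and 61.2 and then 61.5, 88.6 and 78.3, a difference of 0.14 (-0.07 to 0.35). Klrc1, of the NKG2 family, differed by 0.02 (-0.18 to 0.22). Klrd1, the CD94 chain with which NKG2 proteins pair, read 700, 931, 853 and 941 at day 40 and 684, 501 and 564 at day 115, so every day 115 array lay below every day 40 array. Its estimate of -0.35 (-0.88 to 0.17; adjusted p = 0.59, limma) did not pass the test, and the unirradiated mean was 1090.

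Transcription factors of the memory state were mostly level. Eomes, a T-box factor of memory cells, read 188, 212, 190 and 257 and then 207, 159 and 168, a difference of -0.02 (-0.50 to 0.45). Id2, which opposes E proteins in effector cells, differed by -0.12 (-0.80 to 0.56), with 172 to 399 at day 40 and 208 to 432 at day 115. Stat4, the signal carrier of IL-12, differed by -0.51 (-1.03 to 0.00) and by -0.25 within cluster 1, where it held. Hopx, a homeodomain-only cofactor found in memory and effector T cells, read 681, 894, 761 and 793 and then 732, 102 and 803. The other 6 arrays ran from 681 to 894, and day 115 array 2 alone was low. Its estimate was -1.10 (-2.07 to -0.13; adjusted p = 0.34, limma), and without day 115 array 2 the Hopx estimate was -0.19 with an interval inside 2-fold. Of the 22 tested fate-determining transcription factors, 18 held, and 16 of the 22 estimates were below 0, where 44.9% of all genes had an estimate above 0.

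Calcium-binding and lectin genes linked to migration had mostly positive estimates without a call. In the S100, annexin and galectin list, 17 of 20 genes held, the median difference was 0.21 (0.12 to 0.26 over all alternatives) against -0.02 over all genes, and 4 genes had every day 115 array above every day 40 array (4.29% of all genes did). S100a6 read 534, 616, 414 and 542 and then 657, 846 and 944, in unirradiated hosts 32.8 to 80.8, with an estimate of 0.77 (0.07 to 1.46; adjusted p = 0.36, limma). S100a4 read 46, 68.4, 54.2 and 48 and then 73.7, 71.3 and 74.8, a difference of 0.27 (-0.11 to 0.65). Anxa2, a membrane-binding annexin, read 455, 226, 210 and 249 and then 559, 610 and 402, with an estimate of 0.75 (0.17 to 1.32; adjusted p = 0.286, limma). Lgals1, which encodes galectin-1, read 1490, 1290, 233 and 216 and then 1460, 1720 and 1690. The low values were those of the 2 day 40 arrays of cluster 2, near the unirradiated mean of 182, and within cluster 1 the Lgals1 difference was 0.22 with an interval inside 2-fold. Anxa6 (783, 626, 437 and 509, then 912, 1580 and 796) and Lgals9 (323, 327, 230 and 234, then 404, 430 and 420) were the other 2 genes without overlap.

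The memory gene nearest to a call was Tnfrsf1b, which encodes the TNF receptor TNFR2. It read 177, 164, 140 and 160 at day 40 and 263, 347 and 232 at day 115, against 75.9 to 109 in unirradiated hosts. Every day 115 array lay above every day 40 array, and the estimate was 0.69 (0.37 to 1.00; adjusted p = 0.083, limma). With a pseudocount of 64 the adjusted p of Tnfrsf1b was 0.0458, with quantile normalisation 0.0389 and without day 115 array 3 0.0347; under the other alternatives it was above 0.05.

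Naive and quiescence-linked genes, which memory cells keep in part, held in 21 of 26 cases, with a median of -0.16 and no call. Igfbp4, a marker of naive T cells, read 133, 120, 135 and 102 and then 140, 123 and 88.3. Cnn3, an actin-binding calponin, read 29.4, 26.6, 22 and 22.9 and then 37.1, 26.8 and 20.3, a difference of 0.13 (-0.24 to 0.49). S1pr1, the receptor for exit from lymph nodes, differed by -0.16 (-0.37 to 0.04). Ets1 and Satb1, a transcription factor and a chromatin organiser of T cells, had the lowest estimates of the list. Ets1 read 58.7, 277, 296 and 381 and then 78.1, 27.3 and 63.5, with an estimate of -1.43 (-2.29 to -0.57; adjusted p = 0.181, limma); day 40 array 1 lay with the day 115 arrays, and without it the adjusted p of Ets1 was 0.00839. Satb1 read 516, 1090, 631 and 737 and then 546, 326 and 572, with an estimate of -0.79 (-1.30 to -0.28, adjusted p = 0.198, limma), and an adjusted p of 0.0337 without day 40 array 1. Ets1 and Satb1 were each called under that 1 alternative of 18 and under no other.

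Of 49 tested cell cycle genes, none was called, 37 held within 2-fold and 41 held within cluster 1, beside 96.7% and 94.3% overall. Mki67, a marker of cycling cells, read 14.7 to 17.9 at day 40 and 14.6 to 19.8 at day 115, both under the filter level of 26.4, and Top2a, a topoisomerase of dividing cells, read 31.8 to 37.6 and then 26.9 to 37.6. Their wide intervals of -0.54 to 1.33 and -0.47 to 1.31 do not bound the change at 2-fold, although the 7 values overlapped. The pooled spread includes the day 5 arrays, where Top2a ranged from 51.6 to 635. Genes of the MCM helicase, which unwinds DNA for replication, differed among themselves in how they stood against the other groups. Mcm7 read 253, 188, 165 and 192 and then 249, 300 and 251, against means of 115 in unirradiated hosts and 228 at day 5, a difference of 0.28 (-0.27 to 0.82). Mcm2 had a mean of 183 at day 40 and 277 at day 115 (unirradiated 148, day 5 215) and Mcm5 of 170 and 261 (95.1 and 251), while Mcm3 (193 and 186; 184 and 308) and Mcm4 (193 and 157; 184 and 285) were below their day 5 means on both late days. None of the 5 Mcm genes passed the test, and the fitted difference of Mcm4 (0.21) had the opposite sign to its raw means. Plk1, a mitotic kinase, read 93.8, 121, 137 and 121 and then 78.6, 80.8 and 65.5, without overlap (estimate -0.42, -0.72 to -0.13; adjusted p = 0.239, limma). All 9 tested reporters of tonic receptor signalling held. Among them Egr1, induced by T cell receptor signals, read 92.9, 107, 193 and 211 and then 102, 93 and 97.5, against a mean of 713 in unirradiated hosts, and differed by 0.09 (-0.34 to 0.53). The rest of the reporters were split around the unirradiated mean. Above it on both days were Cd5 at means of 381 and then 470 (unirradiated 376), Cd6 at 358 and 478 (346), Ly6d at 86.3 and 90.5 (55.4) and Tnfrsf9 at 37.8 and 39.4 (35.2). Below it on both days were Egr2 at 41 and 32.1 (73.3), Icos at 31 and 21.5 (37.2), Irf4 at 48.6 and 45.4 (66.6) and Nr4a1 at 88 and 94 (104). With the cluster term the difference of Cd5 was -0.11, against the order of its raw means, and it was 0.31 on groups alone. Immediate early and stress genes were the pathway list with the lowest median, -0.26, or -0.01 on groups alone, with 20 of 23 estimates below 0 (44.9% of all genes were above 0), 17 genes held and none called. Fos, an immediate early transcription factor, read 26.9, 110, 13.8 and 86.8 at day 40 and 13.8, 13.8 and 16.6 at day 115, with an estimate of -2.21 (-3.62 to -0.80, adjusted p = 0.195, limma), and an adjusted p of 0.0485 without day 40 array 1. Under no other alternative was Fos called.

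**Figure D3:**
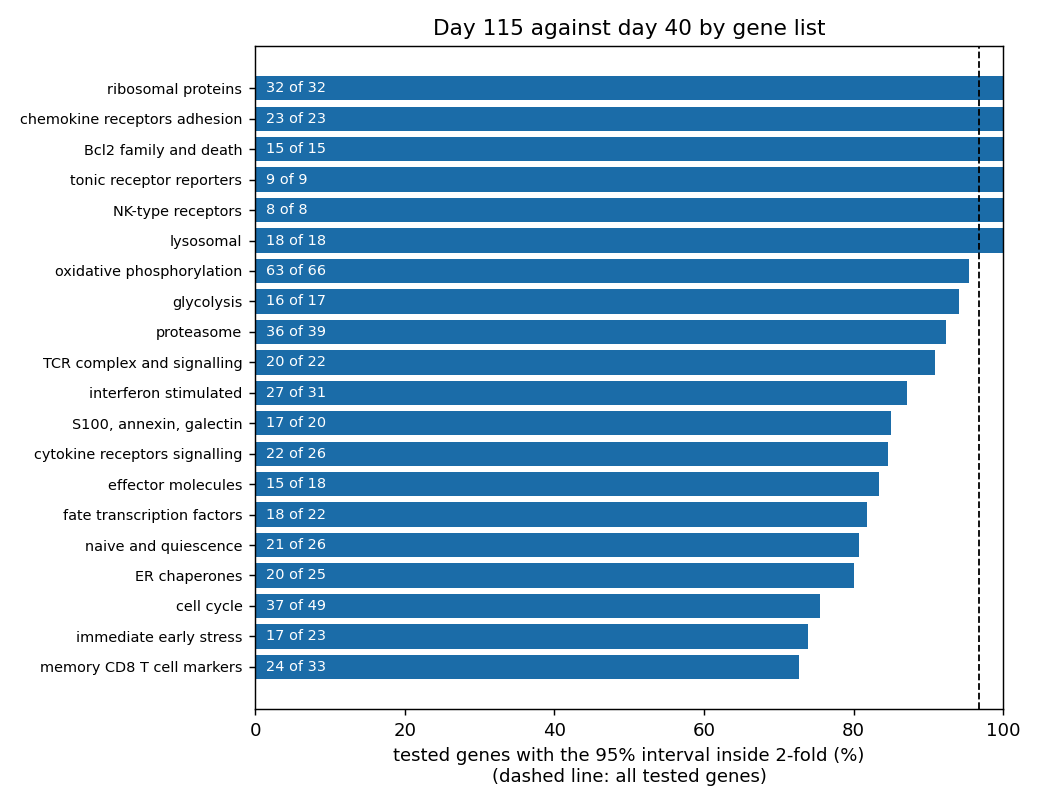
Share of tested genes in each of 20 pathway lists whose 95% interval of the day 115 minus day 40 difference lay inside 2-fold, with the counts in the bars; the dashed line is the 96.7% of all 6409 genes. Ribosomal, adhesion, Bcl2 family, tonic reporter, NK-type receptor and lysosomal genes all held, and the memory list has the lowest share in this fit, 24 of 33. Its place changed with the fit. Within cluster 1 it held in 26 of 33, above the S100, annexin and galectin list (15 of 20) and the immediate early list (17 of 23). On groups alone it held in 20 of 33, above the naive and quiescence list (14 of 26) and the lysosomal list (10 of 18).

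Housekeeping and metabolic lists can be set beside the 96.7% of all genes that held. All 32 tested ribosomal protein genes were inside 2-fold, Rps3 among them with 7870, 7590, 7930 and 8450 and then 8620, 8040 and 7970. So were 63 of 66 genes of oxidative phosphorylation, 36 of 39 proteasome genes, 16 of 17 glycolysis genes and 18 of 18 lysosomal genes. On groups alone, 29 ribosomal, 43 oxidative phosphorylation, 26 proteasome, 13 glycolysis and 10 lysosomal genes held, where 82.4% of all probe sets did. Within cluster 1 these counts were 30, 58, 35, 14 and 16, beside 94.3% of all probe sets. Glycolysis genes had a median of 0.21, or 0.03 without day 115 array 2, with 15 of 17 estimates above 0 beside 44.9% of all genes; the exception to the bound was Tpi1, triosephosphate isomerase, at 114, 163, 128 and 135 and then 206, 438 and 170 (estimate 0.82, 0.28 to 1.36; adjusted p = 0.211, limma). In the interferon-stimulated list 27 of 31 held, and in the list of T cell receptor complex and signalling 20 of 22. Ptprc, the CD45 phosphatase in the latter, read 750, 1200, 1800 and 2180 and then 776, 357 and 549, with an estimate of -0.90 (-1.41 to -0.39, adjusted p = 0.163, limma) and an adjusted p of 0.031 without day 115 array 1. Under no other alternative was Ptprc called. Of 25 endoplasmic reticulum chaperone genes, 20 held. No list had a called member, with 0.109% of all genes called higher and 0.0312% lower.

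Few genes passed the test. By brightest probe set, 7 genes rose (0.109% of 6409) and 2 fell (0.0312%). Ifitm10, a member of the interferon-induced transmembrane protein family, read 787, 623, 335 and 330 at day 40 and 986, 1680 and 1230 at day 115, beside a mean of 229 in unirradiated hosts and 305 at day 5. Every day 115 array was above every day 40 array, and Ifitm10 rose by 0.96 ± 0.17 (SE; adjusted p = 0.0272, limma). Its lower values at day 40 were those of cluster 2, and the rise was 0.84 within cluster 1 (adjusted p = 0.996). The call was lost when any of day 40 arrays 2, 3 and 4 or day 115 array 2 was left out, at adjusted p = 0.103, 0.0607, 0.076 and 0.0588, with estimates of 0.77 to 1.14 over all left-out arrays.

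Kcnj8, the pore subunit of an ATP-sensitive potassium channel, read 46.7, 45.1, 32.1 and 44.5 at day 40 and 88.3, 71.5 and 80.6 at day 115, with 23.7 to 25.6 in unirradiated hosts. The 3 groups did not overlap. Kcnj8 rose by 0.63 ± 0.09 (adjusted p = 0.00414, limma), a ratio of mean signals of 1.9, and it stayed past the threshold whichever of the 7 arrays was left out (adjusted p up to 0.0411).

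Bckdk, the kinase that restrains breakdown of branched-chain amino acids, read 161, 144, 110 and 117 and then 199, 265 and 241, and rose by 0.55 ± 0.11 (adjusted p = 0.0332, limma). Mylpf, a myosin light chain of fast muscle, read 45.7, 50.4, 56.4 and 47.6 and then 73.8, 95.2 and 84.7, with the same size of rise and the same adjusted p. No array of one day overlapped the other for either gene. Both calls were narrow when 1 array was left out. Among those fits, Bckdk kept an adjusted p under 0.05 only without day 115 array 1 (0.00435), and reached 0.145 without day 40 array 2. Mylpf kept it without day 40 array 3 (0.0318) and without day 115 array 1 (0.00928), and reached 0.138 without day 40 array 2. Without the arrays in between, the adjusted p of Bckdk was 0.0511 to 0.0846 and that of Mylpf 0.055 to 0.0804.

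Slc38a2, a transporter of small neutral amino acids, was the fall with the largest size. It read 66, 117, 153 and 177 at day 40 and 60.8, 27.8 and 39.9 at day 115, beside 99.7 to 153 in unirradiated hosts. Every day 115 array was below every day 40 array. Slc38a2 fell by 1.00 ± 0.20 (adjusted p = 0.0459, limma). Among the fits with 1 array left out, its adjusted p was under 0.05 only without day 40 array 1 (0.00843) or day 115 array 1 (0.00506). It was 0.0704 to 0.166 without any of the other 5 arrays. The other called gene that fell, Hoxd10, overlapped between the days (35.5 to 58.9 against 38.6 to 40.8), as did a probe set of Cavin1 that is not its brightest (24.8 to 36.7 against 23.1 to 28.9). A further pair of rises lay in probe sets that are not the brightest of their gene: Ahcy, an enzyme of the methionine cycle, at 59.9 to 75 and then 78.4 to 112, and Acsf3, a mitochondrial acyl-CoA synthetase, at 37.7 to 44.9 and then 60.5 to 77.7. Among these 4, the call was lost when 1 array was left out for 6 of 7 arrays in Hoxd10, 5 of 7 in Ahcy and in Acsf3 and 4 of 7 in Cavin1.

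**Figure D4:**
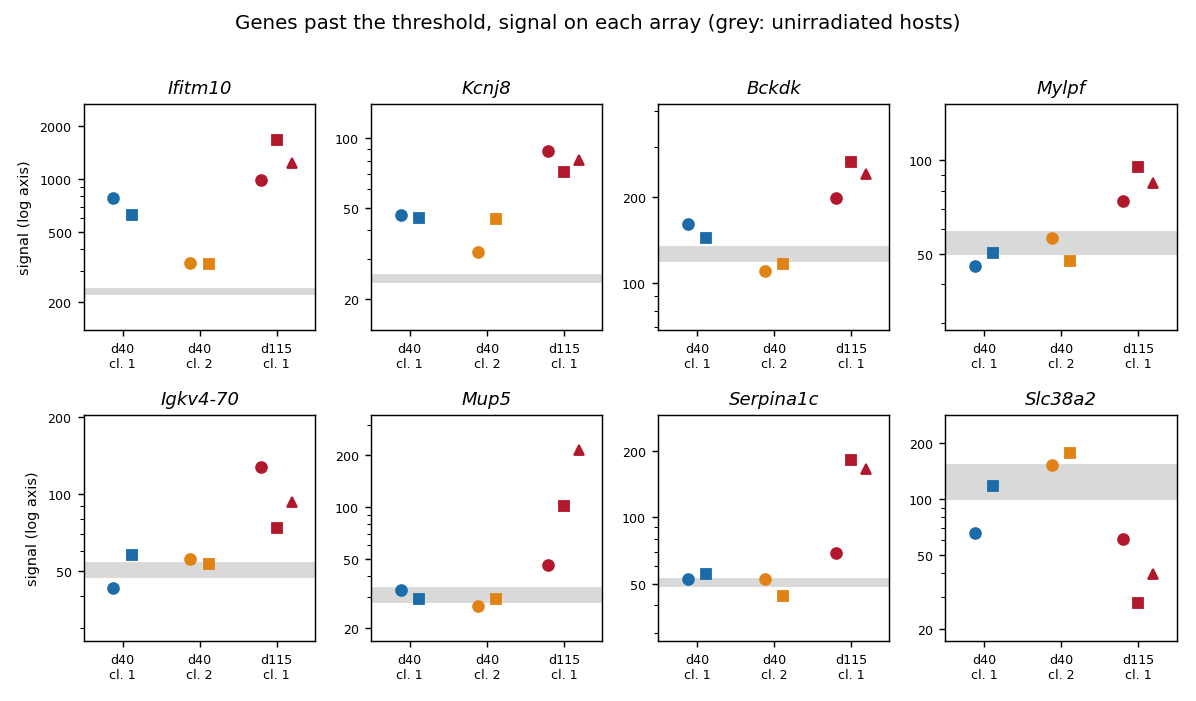
Signal (log axis) of the 8 called genes without overlap between the days, on each array: day 40 arrays of cluster 1 in blue, of cluster 2 in orange, day 115 arrays in red, grey band for the 4 unirradiated arrays. Kcnj8 and Ifitm10 lie above the band on all 7 arrays, Slc38a2 lies below it on all 3 day 115 arrays, and Mup5 and Serpina1c are highest on day 115 arrays 2 and 3.

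The 2 largest rises of all belonged to probe sets that the probe table does not name, 102823_at and 102824_g_at. The first read 24.7, 38.2, 26.9 and 27.8 and then 368, 234 and 114 (difference 2.23 ± 0.24; adjusted p = 0.000171, limma), the second 20.1, 21.8, 18.6 and 20.2 and then 206, 76.5 and 77.1 (1.71 ± 0.21; adjusted p = 0.000537). Both were past the threshold whichever array was left out. The second had means of 17.7 in unirradiated hosts, 18.5 at day 5 and 20.2 at day 40, all under the filter level of 26.4. It was tested only because its day 115 mean of 120 brought its mean over all arrays to 34.7. Its adjusted p is therefore no support for the rise, and its values are a description. Among falls, probe set 102906_at, listed with more than 1 gene and so not named, read 994, 1100, 1880 and 1700 and then 692, 536 and 643 (difference -0.78 ± 0.14; adjusted p = 0.0272), beside 2580 to 2890 in unirradiated hosts. Its call was lost without day 40 arrays 2, 3 or 4 or without day 115 array 2, at adjusted p = 0.101, 0.0607, 0.0662 and 0.0569. The last 2 called falls were in probe sets without a single gene name, with differences of -0.36 and -0.51.

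The remaining 3 named rises were of secreted proteins that other cells make. Mup5, a major urinary protein of liver, read 33.1, 29.4, 26.8 and 29.3 and then 46.2, 102 and 215, and rose by 1.34 ± 0.26 (adjusted p = 0.0332, limma). Serpina1c, a liver protease inhibitor, read 52.6, 55.3, 52.4 and 44.3 and then 68.7, 181 and 165, and rose by 1.00 ± 0.19 (adjusted p = 0.0332). Igkv4-70, an immunoglobulin kappa variable segment, read 43, 58.1, 56.1 and 53.6 and then 127, 73.5 and 92.9, and rose by 0.71 ± 0.12 (adjusted p = 0.0272). The probe set names of all 3 end in _f_at, which the array maker gives to probes that can match several members of a family, so the family and not the member is what was measured. Mup5 and Serpina1c were highest on day 115 arrays 2 and 3, Igkv4-70 on day 115 array 1. Mup5 lost the call without any 1 of the day 40 arrays or day 115 array 2 (adjusted p = 0.0557 to 0.128), and rose by 0.87 without day 115 array 3. Serpina1c lost it without any array other than day 115 array 1 (adjusted p = 0.069 to 0.128). Igkv4-70 lost it without day 40 arrays 1, 2 or 4 (adjusted p = 0.0566, 0.0695 and 0.0662).

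The summed signals of marker lists of other cells moved with those arrays, though not every member did. Hepatocyte markers (9 tested) summed to 503 to 548 at day 40, 572 on day 115 array 1 and 1340 on each of day 115 arrays 2 and 3, with 450 to 538 in unirradiated hosts. Of the 9, 5 held within 2-fold: Ass1 (-0.11), Cps1 (0.03), Hp (0.08), Ahsg (0.11) and Apoa2 (0.22). Alb, serum albumin, read 30.9, 23.4, 22.4 and 22.7 and then 29.4, 408 and 587, Mup3 36, 34.2, 30.5 and 31.6 and then 38.9, 155 and 146, and Serpina1b 33.5, 37.4, 38.8 and 34.4 and then 41.1, 163 and 93.2. None of these 3 passed the test (adjusted p = 0.0881, 0.083 and 0.128, limma), and without day 115 array 1 the adjusted p of Alb was 3.36e-13, that of Mup3 1.74e-10 and that of Serpina1b 5.22e-06. Under the other alternatives none of the 3 was called. Alb had means of 26 in unirradiated hosts, 26 at day 5 and 24.8 at day 40, under the filter level of 26.4. It was tested only because of its day 115 signal, so its adjusted p is no support for a rise. Plasma cell markers (11 tested) were split: 7 held, and Sdc1 (-0.18), Xbp1 (-0.14), Irf4 (-0.11), Ighg3 (-0.08) and Tnfrsf17 (-0.01) had estimates below 0. Their signals summed to 722 to 1220 at day 40, 2570, 1840 and 1520 at day 115, and 495 to 679 in unirradiated hosts. Txndc5, a protein disulfide isomerase of secretory cells, read 700, 373, 157 and 190 and then 792, 1050 and 739, a large part of that sum. Igkv6-23, a kappa variable segment, read 118, 312, 162 and 151 and then 1140, 370 and 376, and Jchain, the joining chain of IgA and IgM, read 39.5, 39.4, 49.1 and 52.2 and then 141, 47.2 and 74. The probe set names of Mup3, Serpina1b and Igkv6-23 also end in _f_at, so each can match several members of its family. They may read some of the same transcripts as the called probe sets of those families. Whether they measure separate transcripts was not tested. B cell markers (16 tested) summed to 2720 to 4350 and then 5740, 4410 and 3650, with Cd74, the class II invariant chain, at 113, 239, 80.7 and 84.9 and then 470, 204 and 180. The defining B cell genes Pax5 (89.1 to 109 and then 102 to 114) and Cd79a (121 to 182 and then 147 to 168) overlapped between the days. The part of these transcripts in the calls was not tested.

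**Figure D5:**
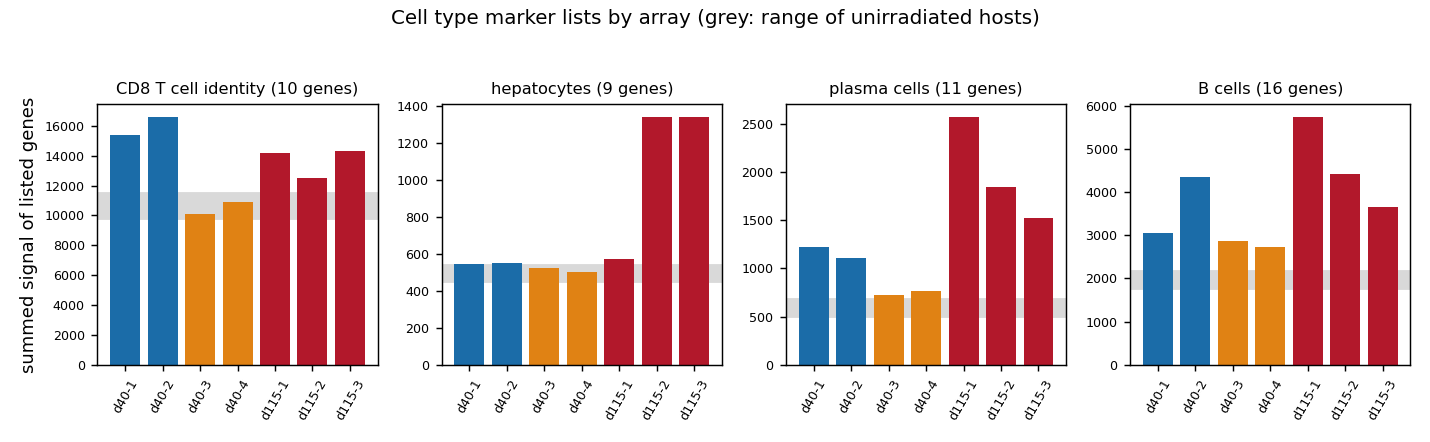
Summed signal of 4 marker lists on each of the 7 arrays (blue, day 40 of cluster 1; orange, day 40 of cluster 2; red, day 115), with the range of the 4 unirradiated arrays in grey. Hepatocyte markers are at 1340 on day 115 arrays 2 and 3 and at 503 to 572 on the other 5, and plasma cell and B cell markers are highest on day 115 array 1. The CD8 T cell sum is 15400 to 16600 on the day 40 arrays of cluster 1 and 12500 to 14300 on the day 115 arrays, which are of the same cluster. Its lowest value, 10100, is on a day 40 array of cluster 2.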

How the data were processed

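Total RNA of sorted OT-I cells was measured on 19 oligonucleotide arrays. The authors deposited 1 linear signal intensity per probe set and array, from 7.68 to 13242.28; how they made it: not given in the sources used here. Groups follow the titles (day 40, n = 4; day 115, n = 3). Of 12488 probe sets, 66 controls were left out, and the 8695 with a mean above the 30th percentile (26.4) were tested; 10833 mapped to 1 gene, 396 to several, and 1193 were not named. Genes count by their brightest probe set. Limma 3.58.1 (R 4.3.3) was run on log2(signal + 16) with group, array cluster (average linkage on 1 minus Pearson correlation) and an intensity trend, after a check on simulated data. Precision is limited by the number of arrays, by the spread pooled over all groups and by low signals.

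Members, lists and tests were chosen with earlier results of these data known. Named were called genes without overlap between days, a fixed panel, the narrowest held list members and marker genes. Hopx, Anxa6, Lgals9, Ets1, Satb1, Plk1, the Mcm genes, Cd5, Cd6, Egr2, Nr4a1, Fos, Tpi1 and Ptprc were chosen after their values were seen. So were Itgb1, Itgb2, Ctsw, Hoxd10, Cavin1, Ahcy, Acsf3 and the probe sets named by ID. Alternatives changed the fit, pseudocount, filter, normalisation and arrays.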

Additional observations from a re-analysis of the deposited data

Results flagged for a closer look

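Among 96 memory, panel, called and other-cell genes examined over the 4 day 40 arrays, 7 had 1 array whose gap to the next, as a share of the range, was past Dixon's 95% critical value, where chance gives about 1 in 20. A set of 3 concerns T cell genes with day 40 array 1 or 2 high: Anxa2 at 455 on array 1 (210 to 249 on the others), Gzmb at 136 on array 1 (70.2 to 79.5) and Ccr7 at 229 on array 2 (82.9 to 101). Kcnj8 was low on array 3, at 32.1, and the other 3 arrays were at 44.5 to 46.7. Another 3 are markers of other cells: Cd79b, a B cell receptor chain, at 275 on array 2 (106 to 120), Ighg3 at 44 on array 1 (33.4 to 34.8) and Alb at 30.9 on array 1 (22.4 to 23.4).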

How the results depend on the processing

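All 17 called probe sets kept their sign under every alternative that tested them, and none reversed. The 11 rises became 0 within array cluster 1 and 0 with the day 40 and day 115 arrays alone, 19 with no filter, 3 with a filter at the 50th percentile, 7 without the intensity trend and 2 with the replicate number as a block. The 6 falls became 0 on groups alone, 0 within array cluster 1, 0 with the day 40 and day 115 arrays alone, 3 with the cluster as a random block, 1 at the 50th percentile, 1 without the trend and 0 with the replicate block. Leaving out 1 array gave 3 to 44 rises and 0 to 21 falls, with 44 and 21 both without day 115 array 1. Whether replicate numbers pair the samples is not known. Deviations of same-numbered arrays from the mean of their own day correlated at -0.25, 0.08 and -0.13. These deviations include the cluster split of the day 40 arrays, so they cannot decide it. Probe sets held within 2-fold stayed at 7163 of 8695 or more in the fits on those probe sets (8052 to 8395 without 1 array). Memory genes held numbered 20 to 29 (22 to 28 without 1 array), 20 of them from 29 tested at the 50th percentile. Signals near 26.4, as for Mki67 and Itgae, limit the size of a difference. With the day 40 and day 115 arrays alone, limma had 287 probe sets at an unadjusted p under 0.05. The cause of the moved counts was not tested, beside fewer arrays or probe sets where that is the alternative.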
